A study of Mus musculus with 4 samples.

Results

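The difference between genotypes that limb and brain have in common was measured over all 4 arrays of the series, with both Rest conditional knockout (CKO) arrays set against both wild type (WT) arrays and tissue held as a block. For each probe the value is the mean of the CKO minus WT difference in limb and the CKO minus WT difference in brain, in log2 signal, positive where CKO is the higher. Values entered where the scanner software called the probe well above background on all 4 arrays, which left 23690 of 41174 probes. These stand for 15649 genes or unnamed transcripts when each is represented by its brightest tested probe. All levels are log2 signal minus the 75th percentile of the array, so that 0 is that percentile.

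Total RNA came from limb and from brain of mouse embryos at embryonic day E13.5, with 1 array for each genotype in each tissue. The mice carried floxed Rest on a genetic background of 129 and C57BL/6, and Cre recombinase came from doxycycline-inducible alleles. Doxycycline from E8.5 to E13.5 is recorded for all 4 samples, WT included. Which alleles the WT embryos carried, where the Cre alleles lie in the genome, how much of each background strain a sample had, and whether a sample pooled embryos were not stated in the labels used here. On chromosome Y, 1 probe of Zfy1 and 1 of Zfy2 were well above background on all 4 arrays. The other Zfy1 probe was so on no array and the other Zfy2 probe on 1, with log2 levels of -3.68 in WT brain and -8.36 in CKO brain. The probes of Uty, Kdm5d, Eif2s3y, Ddx3y, Sry and Usp9y were well above background on no array.

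REST is a zinc-finger repressor that binds the RE1 element beside many neuronal genes and recruits corepressors that keep these genes silent outside neurons. Class I histocompatibility molecules, encoded by the H2 genes on chromosome 17, present peptides on the surface of most cells, and blood cells bring their own RNA into any tissue that is not perfused.

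With 1 array per group the spread of the fit is the disagreement between limb and brain, and an interaction of tissue and genotype cannot be tested. In limma with Benjamini-Hochberg adjustment, 0 of 23690 probes (0%) passed an adjusted p of 0.05, and the smallest adjusted p was 0.635. At an unadjusted p under 0.05 stood 1635 probes (6.9%), 592 higher in CKO (2.5%) and 1043 lower (4.4%). Each named gene whose SE is given below therefore failed the correction, at an adjusted p of 0.635 in limma with Benjamini-Hochberg adjustment. The p-values measure how alike 2 tissues were, and nothing in the labels says that the samples came from separate animals.

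Genes are therefore described by size. A difference of at least 1.5-fold the same way in both tissues was found for 128 probes (0.54% of those tested), 87 higher in CKO (0.367%) and 41 lower (0.173%). A further 33 probes (0.139%) differed at least 1.5-fold in opposite directions. Within limb alone the share at least 1.5-fold higher was 3.02% and the share as far below WT was 2.46%, against 2.22% and 0.815% within brain. Over all 23690 probes the limb and brain differences had the same sign for 61.5%, with Pearson's r of 0.18 across probes, which share their arrays and the scaling of each array. The 128 probes belong to 114 genes or unnamed transcripts. By the brightest probe, 70 genes were at least 1.5-fold higher in both tissues (0.447%) and 29 lower (0.185%), and at 2-fold these numbers were 13 (0.0831%) and 3 (0.0192%). Most of the 128 probes were dim: with the tested probes split by level into 4 groups of equal size, 49 lay in the dimmest, 44 and 26 in the next and 9 in the brightest. Just inside the threshold stood Slc52a3, whose smaller difference was 0.588, and just outside it Sardh, with 0.584.

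**Figure D1:**
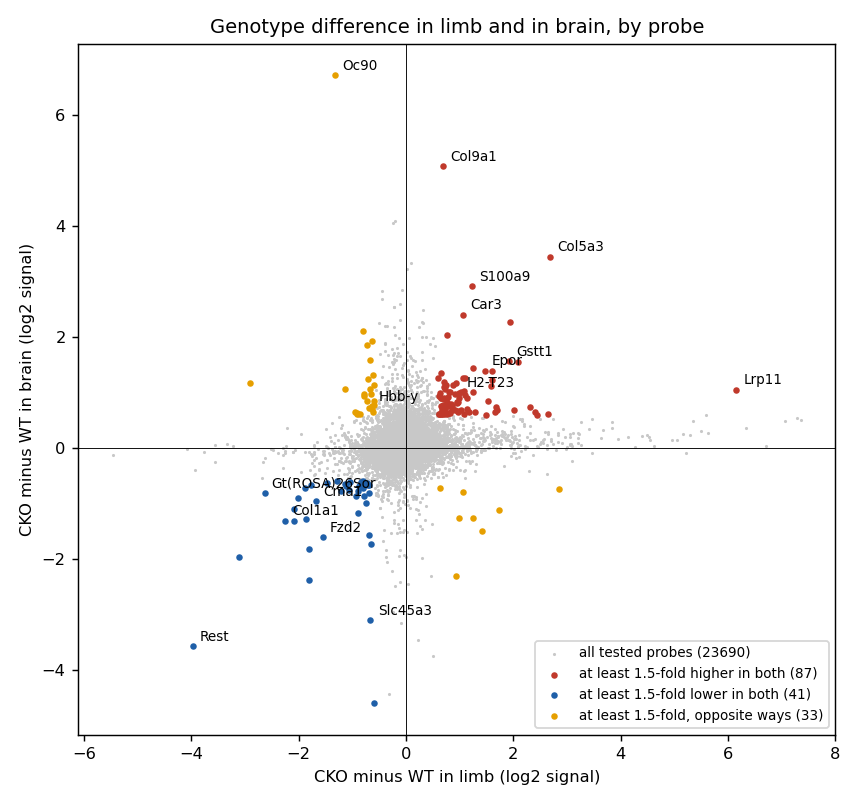
Each point is 1 of the 23690 tested probes, with the CKO minus WT difference in limb on the horizontal axis and in brain on the vertical axis, both in log2 signal. Red marks the 87 probes at least 1.5-fold higher in both tissues, blue the 41 lower in both and orange the 33 that differed in opposite directions. The Rest probe at the lower left is far from the bulk in both tissues, whereas Lrp11 stands out in limb and Col9a1 in brain.

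The targeted gene was lower in both tissues. At the Rest probe on chromosome 5 from 77709928 to 77709987 (mm9), the level was 2.41 (WT) and -1.56 (CKO) in limb and -0.16 (WT) and -3.73 (CKO) in brain. The signal that remained was 6.38% of WT in limb and 8.39% in brain, a mean difference of -3.77 (SE 0.13). The brighter Rest probe, from 77715162 to 77715221, went from 1.64 in WT limb to -0.37 in CKO limb and from -0.78 in WT brain to -1.69 in CKO brain, or -2.01 and -0.91 as differences. The floxed part of Rest is not named in the labels, and a probe outside it checks nothing. Of the 19 tested genes of REST and its corepressors, Rest alone was at least 1.5-fold different the same way in both tissues.

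Neuronal genes with an RE1 element were largely a limb difference with a small counterpart in brain. Of 111 genes of the REST-target neuronal list on the array, 74 (WT) and 103 (CKO) were well above background in limb. In brain these numbers were 109 (WT) and 108 (CKO). Genes dark in WT limb were not tested, so the values below leave them out. The median over 74 tested genes of the list was 1.38 in limb and 0.06 in brain, against -0.03 and -0.02 over all tested genes. Of these 74, 47 were higher in both tissues at any size, beside 21.7% of all genes, and 8 were lower in both, beside 39.3%. At 1.5-fold in both tissues 2 of the 74 were higher, Lrp11 and Cacng2, beside 0.447% of all genes, and 0 were lower, beside 0.185%. Among the secretory granule genes of the list, Chgb was 165-fold higher in CKO limb and 1.42-fold higher in CKO brain, Chga 157-fold and 1.45-fold, and Scg3 133-fold and 1.39-fold. Outside that list, the adhesion G protein-coupled receptor Celsr3, a pan-neuronal gene, differed by 3.27 in limb and 0.47 in brain.

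Lrp11, which encodes a membrane protein of the LDL receptor related family, was at -2.34 (WT) and 3.82 (CKO) in limb and at 2.09 (WT) and 3.14 (CKO) in brain. It was 71.4-fold higher in CKO limb and 2.07-fold higher in CKO brain. The CKO limb level lay above both brain levels at this probe, and WT limb was the lowest of the 4. Cacng2, a regulator of AMPA receptors, was at -4.40 (WT) and -1.76 (CKO) in limb and at -1.29 (WT) and -0.68 (CKO) in brain, 6.24-fold and 1.53-fold higher. WT limb was the lowest array here too. Ush1c, a scaffold protein of hair cells, went from -4.57 to -2.16 in limb and from -2.47 to -1.83 in brain. Nppa, which encodes the atrial natriuretic peptide, was 4.99-fold higher in limb and 1.66-fold in brain. Each of these 4 genes had a much larger difference in limb than in brain, so their SE is wide, for example 1.57 around a mean of 3.60 for Lrp11 and 0.49 around 1.53 for Nppa.

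Promoter windows from RefSeq (GRCm38.p6, 250 bases before to 50 after a gene's start) were matched for 76 of the 114 genes. They were searched on both strands for the 2 conserved arms of the RE1 element, CAGCACC and GGACAGC. The left arm occurs in 7.14% of all 32851 windows and the right arm in 6.56%, and among the 76 genes in those of 11 and 10. The 76 genes have 84 windows, so these counts of genes are not shares of windows and do not compare directly. Both arms with 2 bases between them occur in 7 of 32851 windows (0.0213%). One of these is the promoter of Ogdhl, a gene related to oxoglutarate dehydrogenase, shown here because no other of the 76 genes holds the joined arms. Both arms are also in the windows of Lrp11, Col5a3 and Cox7c. Lrp11 is shown beside Ogdhl as the member of the REST-target list among these, with the arms on the opposite strand and 7 bases between them. Capitals mark the arms and, in Ogdhl, the bases joining them. The windows are chr14:32321769-32322068 for Ogdhl and chr10:7589567-7589866 for Lrp11, both on the plus strand.
Ogdhl: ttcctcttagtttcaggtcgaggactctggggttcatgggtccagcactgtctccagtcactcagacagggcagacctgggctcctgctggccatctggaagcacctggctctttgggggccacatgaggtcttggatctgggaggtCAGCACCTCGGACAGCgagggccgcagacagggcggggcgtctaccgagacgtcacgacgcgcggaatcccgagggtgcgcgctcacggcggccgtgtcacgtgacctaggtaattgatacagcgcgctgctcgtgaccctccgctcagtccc
Lrp11: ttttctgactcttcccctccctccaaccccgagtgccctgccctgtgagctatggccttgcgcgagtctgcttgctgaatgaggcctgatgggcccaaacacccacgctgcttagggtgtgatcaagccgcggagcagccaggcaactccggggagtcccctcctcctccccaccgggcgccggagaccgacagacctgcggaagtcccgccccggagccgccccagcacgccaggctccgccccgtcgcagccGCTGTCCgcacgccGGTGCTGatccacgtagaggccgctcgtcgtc

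In Ogdhl the match begins 103 bases before the gene's start. Ogdhl signal was -3.37 (WT) and -1.71 (CKO) in limb and -2.77 (WT) and -2.12 (CKO) in brain, which is 3.17-fold higher in CKO limb and 1.57-fold higher in CKO brain (mean 1.16, SE 0.32). A match is a description of letters in this window, and REST binding was not measured.

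Most class I H2 genes were higher in CKO, with similar medians in limb and in brain. Grouped by name after their values had been seen, 12 of 14 tested class I genes were higher in CKO in both limb and brain and 0 were lower in both. These counts stand beside 21.7% and 39.3% of all genes, and the medians were 0.70 in limb and 0.64 in brain. At least 1.5-fold higher in both were 8 of the 14, beside 0.447% of all genes. H2-T23, which encodes the nonclassical molecule Qa-1, was at 1.18 (WT) and 2.18 (CKO) in limb and at -0.04 (WT) and 0.95 (CKO) in brain, differences of 0.998 and 0.991 (SE of the mean 0.05). H2-D1, a classical class I gene, was at 1.10, 1.91, 0.69 and 1.32 in the same order, 1.76-fold higher in limb and 1.55-fold in brain. Both CKO arrays were above the WT array of their tissue for each gene, and limb was above brain. H2-Q7 was 1.92-fold higher in limb and 1.74-fold in brain, and H2-Q2 1.96-fold and 1.77-fold. The 4 tested probes of H2-K1, the other classical gene, differed by 0.36 to 0.84 in limb and by 0.50 to 0.77 in brain. The 2 exceptions were H2-Q8 (0.17 in limb and -0.13 in brain) and H2-M3 (-0.11 and 0.28). Class I genes are near-identical copies in part, so their probes may read each other and these are not 14 independent measurements.

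The rest of antigen presentation did not show this evenness. In the list of 22 tested histocompatibility and antigen presentation genes, which includes most of the class I genes, 12 were higher in both tissues and 2 lower in both, beside 21.7% and 39.3% of all genes. The class I light chain gene B2m differed by -0.01 in limb and 0.45 in brain, the peptide transporter gene Tap2 by 0.12 and 0.48 and the loading factor gene Tapbp by -0.28 and 0.13. The immunoproteasome gene Psmb9 differed by -0.24 and 0.60, and its partner Psmb8 by -0.24 and -2.96. Of the 3 tested class II genes 2 were higher in both, beside 21.7% of all genes, H2-Ab1 by 0.34 in limb and 0.53 in brain and H2-DMb1 by 0.22 and 1.27. Interferon response genes, many of which respond together with class I genes, had medians of -0.28 in limb and 0.14 in brain. Of 28 tested, 5 were higher in both tissues and 9 lower in both, shares near those of all genes (21.7% and 39.3%). The antiviral enzyme gene Rsad2 was at -1.38 (WT) and -2.49 (CKO) in limb and at -3.77 (WT) and -4.45 (CKO) in brain, 2.16-fold and 1.61-fold lower. Shfl, an antiviral translation inhibitor, went the other way at both of its probes, and its brighter one was higher by 1.58 in limb and 1.11 in brain.

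Among promoters of the genes at least 1.5-fold different in both tissues, the kappa B palindrome of class I genes, searched as GGGGA and TCCCC with 1 base between, was found for H2-K1, H2-D1 and Lrp11. It occurs in 16 of 32851 windows (0.0487%). The interferon element core, TTTC repeated with 2 bases between, is present in 3.44% of all windows. Counted by gene and not by window, it was found for 6 of the 76: 9130024F11Rik, Etv6, Gm6034, Gstt1, H2-T23 and Rsad2. Of these 6, 9130024F11Rik and Rsad2 were lower in CKO and the other 4 higher. The motifs were chosen after the genes were known. The 3 class I promoters are printed because their genes were higher in both tissues together, with the matched site in capitals. They lie at chr17:34000298-34000597 for H2-K1 and chr17:36032652-36032951 for H2-T23, both on the minus strand, and at chr17:35262844-35263143 on the plus strand for H2-D1 (GRCm38.p6).
H2-K1: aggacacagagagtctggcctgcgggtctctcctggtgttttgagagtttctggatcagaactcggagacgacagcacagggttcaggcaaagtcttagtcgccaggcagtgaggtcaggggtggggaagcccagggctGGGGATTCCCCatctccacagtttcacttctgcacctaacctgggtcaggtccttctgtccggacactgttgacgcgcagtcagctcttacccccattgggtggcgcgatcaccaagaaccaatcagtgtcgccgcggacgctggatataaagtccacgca
H2-D1: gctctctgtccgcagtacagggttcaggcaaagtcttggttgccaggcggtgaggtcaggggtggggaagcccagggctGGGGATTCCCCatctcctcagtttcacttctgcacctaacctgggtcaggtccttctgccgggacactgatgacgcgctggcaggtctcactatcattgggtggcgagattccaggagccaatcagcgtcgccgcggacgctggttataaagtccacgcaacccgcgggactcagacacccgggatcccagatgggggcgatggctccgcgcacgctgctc
H2-T23: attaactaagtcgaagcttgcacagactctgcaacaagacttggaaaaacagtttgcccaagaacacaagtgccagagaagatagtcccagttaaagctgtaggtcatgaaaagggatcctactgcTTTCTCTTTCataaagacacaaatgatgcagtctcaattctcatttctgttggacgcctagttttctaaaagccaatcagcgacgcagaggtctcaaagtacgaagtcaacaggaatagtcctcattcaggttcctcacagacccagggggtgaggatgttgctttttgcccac

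The granulocyte genes Mpo, S100a9 and Mmp9 were at least 1.5-fold higher in CKO in both tissues, and the mast cell gene Cma1 was lower. Mpo, the myeloperoxidase of neutrophil granules, was at -1.66 (WT) and -0.05 (CKO) in limb and at -4.49 (WT) and -3.11 (CKO) in brain, 3.04-fold higher in CKO limb and 2.61-fold in CKO brain (mean 1.49, SE 0.09). S100a9, a calcium-binding protein of neutrophils, was at -0.26, 0.96, -3.81 and -0.90 in the same order, higher by 1.23 in limb and 2.91 in brain. Mmp9, the gelatinase of neutrophil granules, was at least 1.5-fold higher in both tissues at both of its probes, the brighter by 0.76 in limb and 0.82 in brain. In each of these 3 genes the CKO array lay above the WT array of its tissue. The mast cell chymase gene Cma1 was at 2.45 (WT) and 0.78 (CKO) in limb and at -4.92 (WT) and -5.88 (CKO) in brain, 3.20-fold and 1.94-fold lower in CKO, with the brain levels close to the limit of detection. With the normexp background correction Cma1 was 2.93-fold lower in limb and 1.28-fold in brain, and Mmp9 1.496-fold and 1.60-fold higher, so both left the 1.5-fold group. Mpo was then 2.62-fold higher in limb and 1.53-fold in brain, and S100a9 2.22-fold and 4.32-fold, so the brain differences of both shrank. Kit, also of the list, differed by -0.53 in limb and -0.03 in brain.

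The granulocyte and mast cell list could be tested for 6 of its 31 genes on the array only. Of the 6, 4 were higher in both tissues and 2 lower in both, beside 21.7% and 39.3% of all genes. Prtn3, among the 4, was 1.07-fold higher in limb and 1.04-fold in brain with the normexp background correction. The mean level of the 6 was -1.10 (WT) and -0.81 (CKO) in limb and -2.88 (WT) and -2.16 (CKO) in brain. Genes of the list well above background numbered 15 (WT) and 21 (CKO) in limb and 8 (WT) and 16 (CKO) in brain. The neutrophil genes Elane, Csf3r, Lcn2 and Mmp8 were among 10 detected on no array, and the 3 mast cell genes Cpa3, Mcpt4 and Tpsb2 were detected in both limb arrays and in neither brain array. More spots were detected on the CKO arrays, 68.6% against 62.7% in limb and 70.7% against 64.5% in brain, and the part of this in the list's counts was not tested. In whole tissue, fewer cells of a type and less RNA per cell cannot be told apart.

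Red cell genes had a median of -0.59 in limb over 33 tested genes and a median of -0.02 in brain. Of the 33, 15 were lower in both tissues and 5 higher in both, shares near those of all genes (39.3% and 21.7%). Ahsp, the chaperone of alpha globin, was at 3.74 (WT) and 1.97 (CKO) in limb and at 1.86 (WT) and 1.20 (CKO) in brain, 3.41-fold and 1.58-fold lower in CKO. Slc25a37, the iron importer of mitochondria, was 2.78-fold lower in limb and 1.55-fold lower in brain. The haem synthesis gene Alas2 differed by -1.79 in limb and -0.41 in brain, and the red cell membrane gene Slc4a1 by -1.51 and -0.45. At these probes the limb differences were larger than those of brain. The dimmer probe of Slc25a37 differed nearly alike in both, by -0.43 in limb and -0.39 in brain. Globins, whose near-identical copies may share a probe, differed by -1.16 (Hba-a1) and -1.19 (Hba-a2) in limb and by -0.09 and -0.05 in brain. The mean level of the list was 0.63 (WT) and 0.13 (CKO) in limb and 0.11 (WT) and 0.16 (CKO) in brain.

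Epor, the erythropoietin receptor of red cell precursors, differed in the other direction from Ahsp and Slc25a37. It was at -0.80 (WT) and 0.66 (CKO) in limb and at -2.53 (WT) and -1.14 (CKO) in brain, 2.76-fold and 2.62-fold higher (mean 1.43, SE 0.06). No other of the 33 red cell genes was higher by at least 0.32 in both tissues. Its only tested probe lies on chromosome 9 from 21763422 to 21763481 (mm9), in the same 10 Mb as 2 other genes higher in both tissues. These are Shfl, with 2 probes from 20678667 to 20678746, and Col5a3, from 20574592 to 20574651.

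Col5a3, a chain of type V collagen, was at -0.61 (WT) and 2.07 (CKO) in limb and at -3.77 (WT) and -0.32 (CKO) in brain. It was 6.43-fold higher in CKO limb and 10.9-fold higher in CKO brain (mean 3.07, SE 0.24). Col5a2, another chain of type V collagen, did not share this in limb, at -0.04 against 0.39 in brain. Gstt1, a glutathione transferase, was at -1.91 (WT) and 0.01 (CKO) in limb and at -3.29 (WT) and -1.72 (CKO) in brain, 3.78-fold and 2.96-fold higher. Its neighbour on chromosome 10, Gstt2, was 1.72-fold higher in limb and 1.88-fold in brain. Car3, a carbonic anhydrase of muscle and fat, was 2.08-fold and 5.26-fold higher, and Kazald1, which encodes a secreted protein, 1.69-fold and 4.09-fold. Col9a1, a cartilage collagen, was 1.61-fold higher in limb and 33.7-fold in brain. Cartilage genes as a list stood at a median of -0.09 in limb and 1.87 in brain, so in limb Col9a1 was above 0 and the median of its list below.

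**Figure D2:**
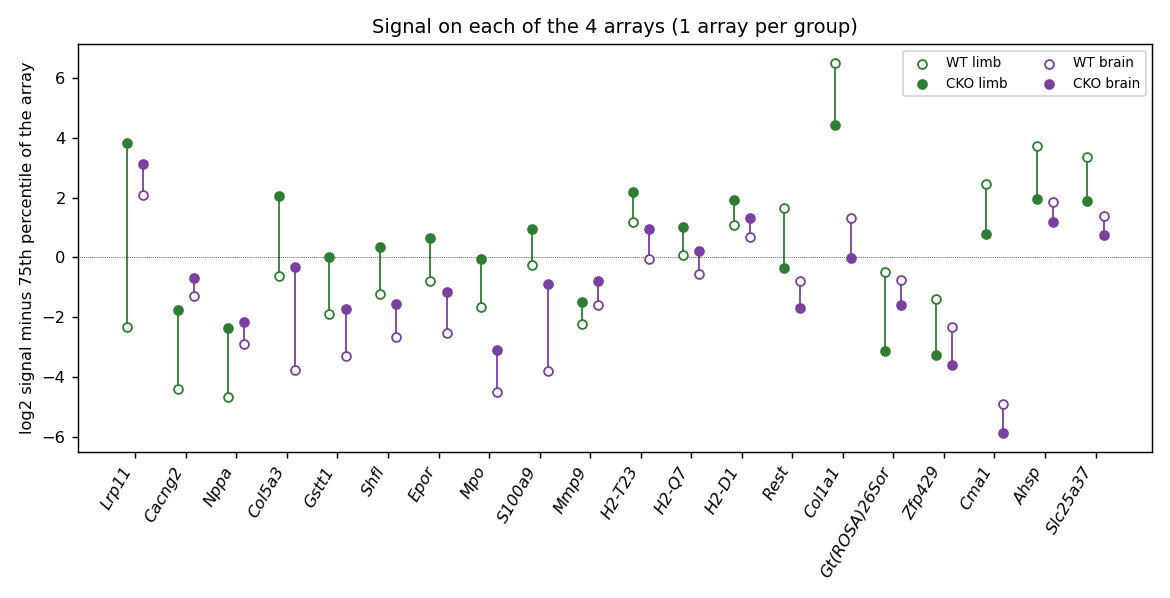
Signal of 20 genes on each of the 4 arrays, on the vertical axis as log2 signal minus the 75th percentile of the array, at the brightest tested probe of each gene. Open circles are WT and filled circles CKO, green for limb and purple for brain, with a line joining the pair of a tissue. The 13 genes from Lrp11 to H2-D1 are higher in CKO in both tissues and the 7 from Rest to Slc25a37 lower in both.

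A pair of loci often used to carry transgenes in mice held genes lower in both tissues. Col1a1, the main chain of type I collagen, was lower at each of its 3 tested probes, with differences from -2.25 to -2.08 in limb and from -1.32 to -1.11 in brain. Its brightest probe, on chromosome 11 from 94813075 to 94813134 (mm9), was at 6.52 (WT) and 4.44 (CKO) in limb and at 1.30 (WT) and -0.02 (CKO) in brain. The partner chain Col1a2 differed by -0.21 in limb and 1.07 in brain, and the 32 tested connective tissue and bone genes had medians of -0.16 and 0.69, so Col1a1 stood apart from both in either tissue. Gt(ROSA)26Sor, the noncoding RNA of the Rosa26 locus on chromosome 6, was at -0.49 (WT) and -3.12 (CKO) in limb and at -0.76 (WT) and -1.58 (CKO) in brain, 6.21-fold and 1.76-fold lower in CKO. Within 1 Mb of its probe, 0 of 45 tested probes were at least 1.5-fold different the same way in both tissues, and within 1 Mb of the first Col1a1 probe 0 of 50. The share over all tested probes was 0.54%, from which 0 cannot be told apart with so few probes. These counts leave out the probes of Gt(ROSA)26Sor and of Col1a1 themselves. The other 7 genes of the transgene locus list, among them Hprt and Actb, did not reach 0.32 the same way in both tissues. The labels do not place the Cre alleles, and their part in these values was not tested.

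Genes at least 1.5-fold different in both tissues were spread unevenly over the genome. Chromosome 13 had 14 of 890 tested probes (1.57%), chromosome 17 had 15 of 1090 (1.38%) and chromosome 12 had 12 of 906 (1.32%), against 0.13% on each of chromosomes 16, 19 and X. Of 254 stretches of 10 Mb with at least 20 tested probes, 181 held none of these probes and 8 held 3 or more, together 41 of the 126 probes with a position. The H2 genes account for most of the 12 probes between 30 and 40 Mb on chromosome 17. Around Rest itself, on chromosome 5, 0 of 219 tested probes within 20 Mb differed in this way, leaving out the probes of Rest. This is near the 0.54% over all tested probes. These stretches were described after the values had been seen.

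**Figure D3:**
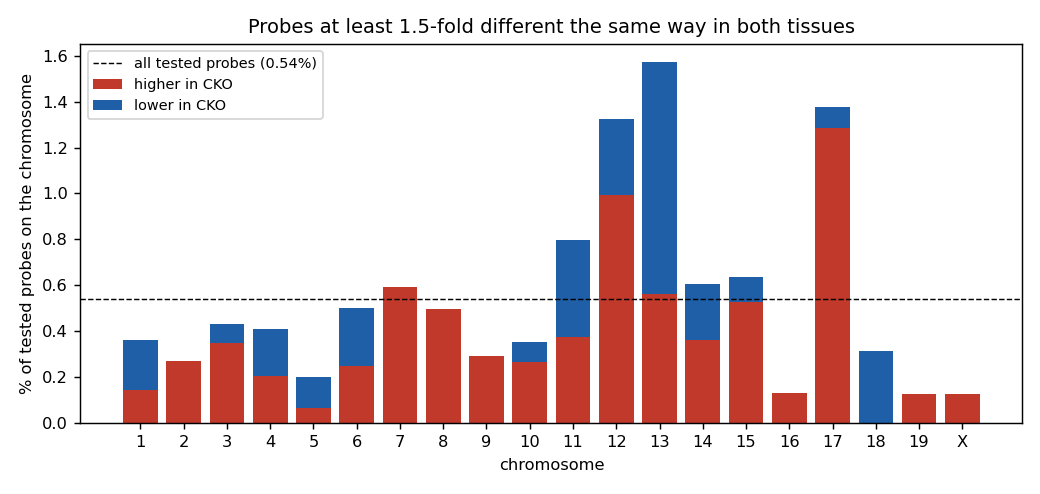
Share of tested probes on each chromosome that were at least 1.5-fold different the same way in both tissues, in percent, with red for higher in CKO and blue for lower. The dashed line is the share over all tested probes, 0.54%, and chromosomes 13, 17 and 12 lie furthest above it.

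Several of these stretches held neighbours going opposite ways. On chromosome 13 between 70 and 80 Mb (mm9), 5 of 68 tested probes belonged to Glrx, Rhobtb3, Arsk and the transcript AK078248. The 2 probes of the sulfatase gene Arsk disagreed in both tissues. The one from 76198809 to 76198868 differed by -3.11 in limb and -1.97 in brain, and the one from 76199926 to 76199985 by 1.93 and 2.26. Glrx, a glutaredoxin that acts in redox control, was 2.37-fold and 2.72-fold higher in CKO, and AK078248 was 2.31-fold and 1.72-fold lower. Further along chromosome 13, the respiratory chain subunit gene Cox7c (86184486 to 86185363) was 1.99-fold higher in limb and 1.85-fold in brain. The transcript ENSMUST00000078764 beside it (86185921 to 86185980) was at 0.92 (WT) and -0.89 (CKO) in limb and at 0.31 (WT) and -1.52 (CKO) in brain, 3.50-fold and 3.54-fold lower.

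Zinc-finger genes lie close together on chromosome 13 between 60 and 70 Mb. Grouped by name after their values had been seen, 19 were tested there by their brightest probe, with medians of -0.24 in limb and -0.04 in brain. Of the 19, 11 were lower in both tissues and 3 higher in both, beside 39.3% and 21.7% of all genes, and Zfp429 alone was at least 1.5-fold lower in both, beside 0.185%. Zfp429, at 67490657 to 67490716 (mm9), was at -1.41 (WT) and -3.27 (CKO) in limb and at -2.32 (WT) and -3.60 (CKO) in brain, 3.63-fold and 2.44-fold lower. Zfp874a, from 67541780 to 67541839, was well above background on both WT arrays and on neither CKO array, with a bound of at least 10.5-fold in limb and at least 7.08-fold in brain. A probe of Rsl1 at 67283470 to 67283530 differed by -1.03 in limb and -0.62 in brain, while its other, brighter probe differed by 0.15 and 0.34. On chromosome 12 between 50 and 60 Mb, 5 of 67 tested probes belonged to Fam177a, Srp54a, Scfd1 and the transcript AK042046. Both probes of Fam177a were higher, the brighter by 0.91 in limb and 0.98 in brain, as was Srp54a, a subunit of the signal recognition particle, by 0.66 and 0.61. Scfd1, a factor of vesicle fusion, was lower at 1 probe and close to WT at its 2 others.

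Agreement among probes of a gene varied. Of the 128 probes, 56 had another tested probe of the same gene, and for 37 of these another differed by at least 0.32 the same way in both tissues, while for 19 none did. Agreement was found for 27 of 38 higher probes and for 10 of 18 lower ones. Fzd2, a Wnt receptor, shows the contrast, since 1 probe was at 0.01 (WT) and -1.54 (CKO) in limb and at -1.47 (WT) and -3.08 (CKO) in brain while its brighter probe differed by 0.0041 in limb and -0.05 in brain. The death receptor gene Tnfrsf21 had 1 probe with differences of -1.81 and -2.38 and 2 brighter probes between -0.14 and 0.06. For E2f6, a repressor of the cell cycle, 1 probe was 4.24-fold higher in limb and 2.91-fold in brain and the brighter one differed by -0.18 and -0.20. The kinase gene Jak3 was higher in both tissues at each of its 3 tested probes. These genes were chosen after their values were seen, and whether a probe reads a splice form, an allele or another transcript was not tested.

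**Figure D4:**
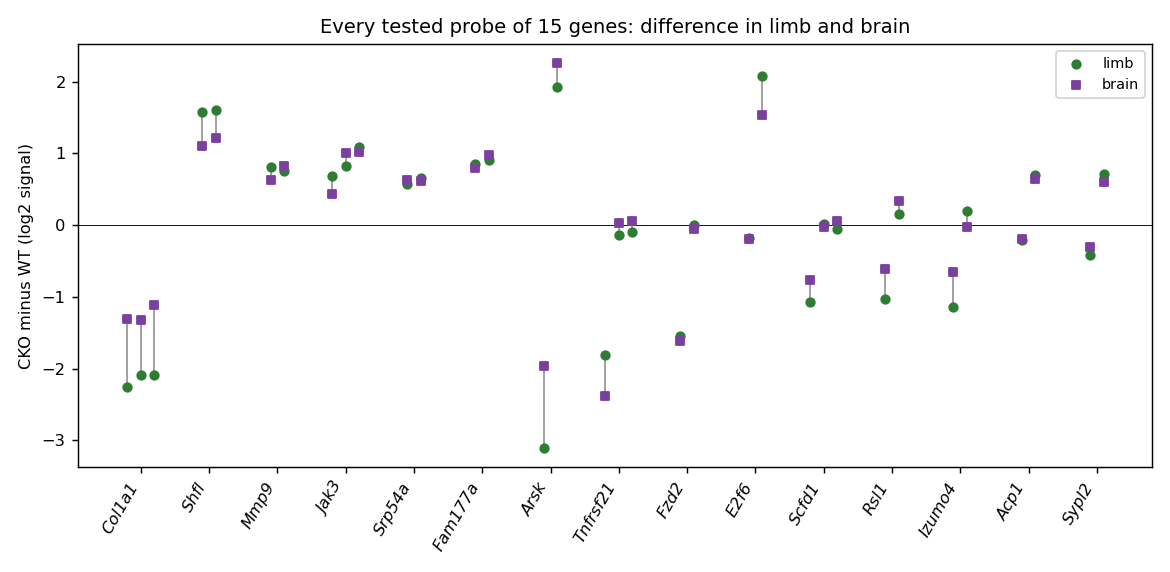
CKO minus WT difference, in log2 signal, of every tested probe of 15 genes chosen after their values were seen, green for limb and purple for brain, with a line joining the values of 1 probe. All probes of Col1a1, Shfl, Mmp9, Jak3, Srp54a and Fam177a lie on the same side of 0, the 2 probes of Arsk lie on opposite sides, and the remaining 8 genes have 1 probe at least 1.5-fold different and no other that goes the same way by as much.

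Hox genes, which encode transcription factors that pattern the body axis and the limb, were grouped by name after their values had been seen. Of 20 tested by their brightest probe, 16 were higher in CKO in both tissues and 0 lower in both, beside 21.7% and 39.3% of all genes, with medians of 0.56 in limb and 0.41 in brain. Hoxa2, Hoxb2 and Hoxb8 were at least 1.5-fold higher in both. With the normexp background correction 15 were higher in both, 1 lower in both and 1 at least 1.5-fold higher in both. Hoxd1 went opposite ways, by 1.42 in limb and -1.49 in brain, as did Hoxa6 by 0.48 and -1.38, Hoxa9 by -0.34 and 0.39 and, close to WT, Hoxa3 by -0.0040 and 0.04. Hoxa2, a patterning gene of the hindbrain, was at -3.50 (WT) and -1.48 (CKO) in limb and at -0.97 (WT) and -0.30 (CKO) in brain, 4.06-fold and 1.59-fold higher. On chromosome 11 Hoxb2 was 1.54-fold and 1.53-fold higher and Hoxb8 1.69-fold and 1.52-fold. Hoxb3 was 3.20-fold and 1.67-fold higher at 1 probe, and its other probe differed by 0.07 in limb and 0.38 in brain. The Hoxb genes lie within 2 Mb of Col1a1, where 3 of 85 tested probes (3.53%) were at least 1.5-fold different in both tissues, leaving out the probes of Col1a1. The share over all tested probes was 0.54%.

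Smaller differences ran through other lists. Of 38 tested hypoxia and glycolysis genes, 27 were higher in both tissues and 4 lower in both, beside 21.7% and 39.3% of all genes, with medians of 0.25 in limb and 0.11 in brain and 0 at 1.5-fold in both. Bnip3, a mitophagy receptor induced by low oxygen, was at 1.61 (WT) and 2.31 (CKO) in limb and at 1.75 (WT) and 2.13 (CKO) in brain, and Pdk1, a brake on pyruvate use, differed by 0.40 in limb and 0.35 in brain. Skeletal muscle genes were higher in both tissues for 17 of 23 tested and lower in both for 0, beside the same 21.7% and 39.3%, with medians of 0.42 and 0.16. With the normexp background correction 13 were higher in both and the brain median was 0.086. The slow troponin gene Tnnt1 was 1.53-fold higher in limb and 1.52-fold in brain, from levels of 4.63 in WT limb and -1.96 in WT brain. Endothelial genes were higher in both for 18 of 27 and lower in both for 0, against the same shares of all genes, with medians of 0.05 and 0.28. Ramp2, a receptor partner needed for vessel integrity, differed by 0.70 and 0.47. Beside these, cell cycle genes stood at medians of -0.02 in limb and -0.02 in brain and housekeeping genes at -0.01 and -0.01.

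**Figure D5:**
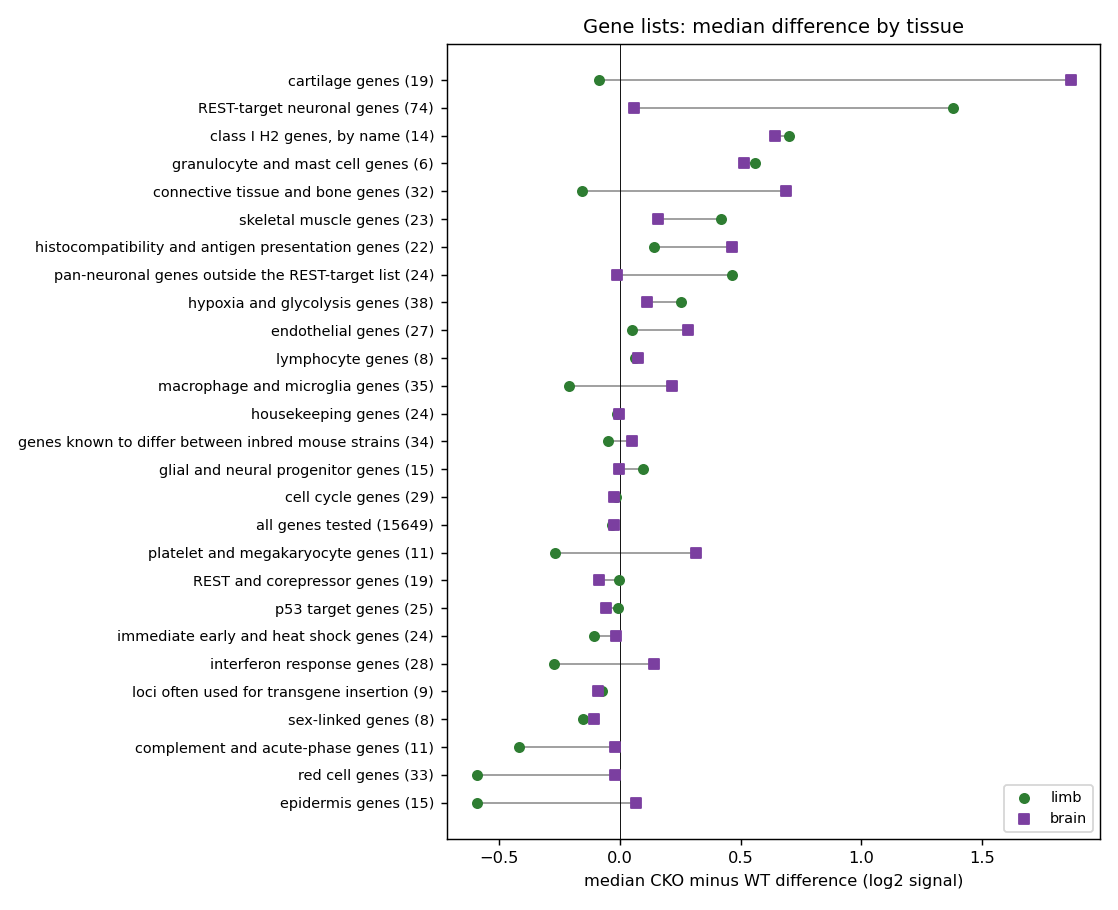
Median CKO minus WT difference, in log2 signal, over the tested genes of each list, with green circles for limb, purple squares for brain and the number of tested genes in brackets. Class I H2 genes and the granulocyte and mast cell list have nearly equal medians above 0 in both tissues, while cartilage genes are high in brain alone and REST-target neuronal genes in limb.

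Genes known to differ between inbred mouse strains showed no common direction. Of 34 tested, 10 were higher in both tissues and 11 lower in both, beside 21.7% and 39.3% of all genes, with medians of -0.05 in limb and 0.05 in brain, and Car3 alone was at least 1.5-fold different in both. Nnt, whose coding deletion marks some C57BL/6 stocks, differed by -0.11 in limb and -0.15 in brain, and Entpd4 by 0.20 and 0.21. X-linked genes of the sex-linked list were lower in both for 8 of 8 tested, beside 39.3% of all genes, by small amounts from 0.05 to 0.29 in size. Under scaling to the median of detected probes or with the normexp background correction, 7 of the 8 were lower in both. Xist was at 3.45 (WT) and 3.07 (CKO) in limb and at 2.73 (WT) and 2.54 (CKO) in brain. The part of strain in any of the differences above was not tested.

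Probes dark on both arrays of a genotype were left out of these counts and give bounds. A probe well above background on both CKO arrays and on neither WT array was found 581 times, and the reverse 6 times. The lowest log2 signal well above background was -4.95 (WT) and -5.76 (CKO) in limb and -5.36 (WT) and -6.19 (CKO) in brain, so the limit was lower on the CKO array of each tissue. With a bound of at least 1.5-fold in both tissues, 11 of the 581 and 6 of the 6 remained. Zfp125, a zinc-finger gene, was higher by at least 3.90-fold in limb and 8.72-fold in brain. Mlkl, the executor of necroptosis, was at least 4.58-fold and 2.92-fold higher, and the innate sensor gene Nlrp6 at least 5.92-fold and 2.03-fold. After Zfp874a the largest lower bounds were those of the transcript AK030712, lower by at least 3.09 on the log2 scale in limb and 2.29 in brain, and of the transcript NAP105866-1, at least 5.13-fold and 6.38-fold.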

How the data were processed

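Limb and brain of E13.5 embryos were hybridised as Cy3-labelled cRNA to single-colour Agilent arrays, 1 per group. The submitters' processing notes name Agilent Feature Extraction 9.5.3.1. Deposited values are intensities, background-subtracted within each array per the file headers, and the deposited flag columns, a score of 0 or 1 per spot, mark spots well above background, saturated or outlying. The raw mean and background intensities the authors deposited served the normexp alternative (offset 50).

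Control spots and spots flagged as outliers were left out, log2 intensities were centred on each array's 75th percentile (777 to 1002 in signal over 43379 spots), and spots of a probe were averaged. A probe was tested when at least 0.5 of its spots were well above background on each of the 4 arrays. The series table differed from the scanner files by at most 0.0071 on the log2 scale. The fit had terms for tissue and genotype (R 4.3.3, limma 3.58.1, eBayes, 2.65 degrees of freedom in all) and was tested on simulated data. Precision is limited by the number of arrays. Spots of the same probe on the same arrays gave a median SD of 0.030 log2 for the mean difference of a single spot. This is over 161 probes printed 10 times and detected throughout. Error that all spots of an array share, as from labelling or hybridisation, is not in this SD. Summaries and plots were made in Python 3.11.15 (matplotlib 3.10.9, numpy 2.4.6, pandas 2.3.3).

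Of 41174 probes, 27029 were named through their accession in a RefSeq table, 5505 by symbol and 876 by synonym, and 7764 kept the name in the file. Positions of probes come from the scanner files (mm9). A bound sets the bright array's level against the lowest level well above background on the dark array, or the probe's own if higher.

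The comparison, the 25 gene lists and the members were chosen with earlier results of these data known. Named genes are Rest, the 15 largest mean differences in each direction among called genes, filled up from genes at least 1.5-fold the same way in both tissues since 0 were called, with no other tested probe at least 1.5-fold the other way; up to 4 genes of each list that differ by at least 0.32 (log2) the same way in both; and the 5 largest bounds in each direction. Other genes named were chosen after their values were seen. 2 genes within the rule or the lists are not reported here. Alternatives covered background correction, scaling, filters, the source of values, the prior, the tissue block, probe choice, the threshold and left-out arrays.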

Additional observations from a re-analysis of the deposited data

Results flagged for a closer look

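Some results went opposite ways in limb and brain, and none of these differences between tissues could be tested with 1 array per group. The median of macrophage and microglia genes was -0.21 in limb and 0.22 in brain, and that of platelet and megakaryocyte genes was -0.27 in limb and 0.32 in brain. With the normexp background correction the platelet medians were -0.24 and 0.022 and those of macrophage and microglia genes -0.18 and 0.14. The embryonic globin genes Hbb-bh1 and Hbb-y, which are near-identical in part, differed by -0.69 and -0.64 in limb and by 0.71 and 0.75 in brain. The guanylate-binding protein gene Gbp6 differed by -0.79 in limb and 0.97 in brain, and the cartilage gene Snorc by -0.79 and 2.11.

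Outside the tested probes, 581 were well above background on both CKO arrays and on neither WT array, against 6 the other way round. This was picked out as signal in data that the main comparison did not use. Both CKO arrays had more spots well above background and a lower detection limit than the WT array of their tissue, and the part of this in the 581 was not tested.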

How the results depend on the processing

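No probe passed an adjusted p of 0.05 in limma under any alternative but one. Without a filter on dim probes, 5386 probes were called, 78 higher and 5308 lower in CKO. That setting also tests spots that hold the scanner's substitute value for dark spots. Among the 63 named genes, Epor, Mpo, Mmp9, H2-T23 and ENSMUST00000078764 passed in that setting, at an adjusted p from 0.0398 upward in limma. None of the 63 reversed under any alternative. With an array left out none could reverse, since 1 tissue then remains and all 63 differ the same way in both tissues. Without the tissue block (the replicate block of this design), 0 probes were called and 29 stood at an unadjusted p under 0.05. The count of 128 probes at least 1.5-fold different the same way became 66 with the normexp background correction (48 higher, 18 lower, all among the 128), 742 when detection on at least 1 array sufficed (333 higher, 409 lower) and 6944 with no filter (390 higher, 6554 lower). It cannot be given with an array left out, since 1 tissue then remains, and no test is possible there without residual degrees of freedom.

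Medians of the mean difference moved as follows, and the cause was not tested. With normexp the granulocyte and mast cell median was 0.35 (0.54 in the reported setting), class II H2 genes 0.17 (0.44), platelet and megakaryocyte genes -0.15 (-0.03), red cell genes -0.13 (-0.21), macrophage and microglia genes -0.0071 (0.017), the lymphocyte median -0.11, transgene loci -0.08, cell cycle -0.0063 and housekeeping 0.036. With quantile normalization the lymphocyte median was 0.038, transgene loci -0.037 and housekeeping 0.053. With the mean of all probes of a gene, transgene loci stood at -0.078, cell cycle at -0.033, housekeeping at 0.0028 and glial and neural progenitor genes at 0.13. With an array left out, 1 tissue remains, and the median of that tissue alone replaces the median of the mean difference. Limb alone gave 0.064 for lymphocyte genes, -0.013 for housekeeping genes and -0.074 for transgene loci. It gave -0.0068 for p53 targets, -0.018 for cell cycle genes and 0.097 for glial and neural progenitor genes. Brain alone gave 0.074, -0.0055, -0.089, -0.060, -0.023 and -0.0018 in the same order. The brain median of red cell genes, -0.02, was 0.0020 when arrays were scaled to the median of detected probes.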
